A study of Mus musculus with 12 samples.

Results

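The editing sites described here are A-to-I positions that lie in small local groups: positions with at least 1 and at most 9 other listed positions within 500 bp on the same chromosome. They were chosen by position alone, over the union of the sites that the authors listed in any of 12 RNA-seq libraries, and they number 21271 of 46689 listed sites (45.6%). The remaining positions either had 10 or more others within that distance (11481 sites, called dense below) or none (13937 sites, called isolated below). The libraries came from primary cortical neuron cultures of C57BL/6J mouse embryos (E16.5). Each culture was infected, 1 day after seeding, with lentivirus that expresses a short hairpin RNA, and was harvested 7 days after dissection. RNA was depleted of ribosomal RNA. The 5 groups of 2 biological replicates each carried control hairpin 1 (shControl1), control hairpin 2 (shControl2), or a hairpin against Adar (shAdar1), Adarb1 (shAdar2) or Zfr (shZfr). The first shAdar2 replicate was sequenced as 3 technical libraries from the same neurons, and their reads were summed here to 1 sample. All groups, controls included, were infected, so no group shows uninfected neurons. The design compares shAdar1 and shAdar2 with shControl1 to ask which sites depend on each enzyme, and shZfr with shControl2 to ask which sites depend on Zfr. Nothing in the labels says that replicates came from separate animals or litters, so p-values refer to these samples only. Those of single sites rest largely on read counts. Replicates of the controls, shAdar1 and shZfr differed at these sites by about as much as read sampling (mean variance ratio 1.02 to 1.23). A very small site p-value thus reflects many reads, not many cultures.

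ADAR enzymes bind double-stranded RNA and deaminate adenosine to inosine, which reverse transcription reads as guanosine. ADAR1, encoded by Adar, edits many positions in long duplexes, often formed by inverted repeats, whereas ADAR2, encoded by Adarb1, is known for efficient editing of single adenosines in short, imperfect duplexes in transcripts of neuronal receptors and channels. Because 1 duplex can hold many adenosines, editing sites occur in clusters, and neighbouring adenosines in a duplex can be edited to very different levels. Zfr encodes a zinc finger protein that binds double-stranded RNA. An editing level is the share of reads at a position that carry guanosine, in percent. Positions are in the mm9 build, and the gene, strand or transcript part at a site was not analysed here because the annotation used is of another build.

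Most of these local groups were small and tight. The number of other sites within 500 bp was 1 for 8393 members, 2 for 4933, 3 for 2862 and 9 for 360, with a median of 2. The nearest other site lay at a median of 15 bp (quartiles 5 and 48 bp), and within 10 bp for 42.5% of members. For dense sites that share was 94.1%. Chaining members at most 500 bp apart gave 7279 local clusters, of which 4121 had 2 members, 3090 had 3 to 9 and 53 had 10 or more. Clusters of at least 2 members spanned a median of 52 bp. At the lower and upper limits of the rule, sites with 0 others within 500 bp had a mean shControl1 level of 17.9% over 117 sites tested for shAdar1, sites with 1 other 19.4% over 117, sites with 9 others 17.0% over 10, and sites with 10 others 25.4% over 17.

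Listed does not mean edited in these cultures. In 5850 members (27.5%) no library held an edited read, against 69.0% of dense and 40.1% of isolated sites. The position with the third highest read number among members, chromosome 3 position 80494401, had 0 edited reads in every group, for example 0 of 872 in shControl1, which allows a level of up to 0.344%. Pooled over reads, members were edited at 13.2% and 13.8% in the shControl1 samples, whereas dense sites stood at 2.57% and 2.60% and isolated sites at 13.8% and 15.3%. In shAdar2, the isolated sites (13.8% and 13.1%) stood above the members (8.30% and 7.69%), as the plot of pooled level by neighbour class shows. The same held in shAdar1 (9.75% and 7.51% against 6.64% and 5.64%) and, by less, in shControl1 and shZfr. In shControl2 the isolated sites were slightly below the members.

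**Figure D1:**
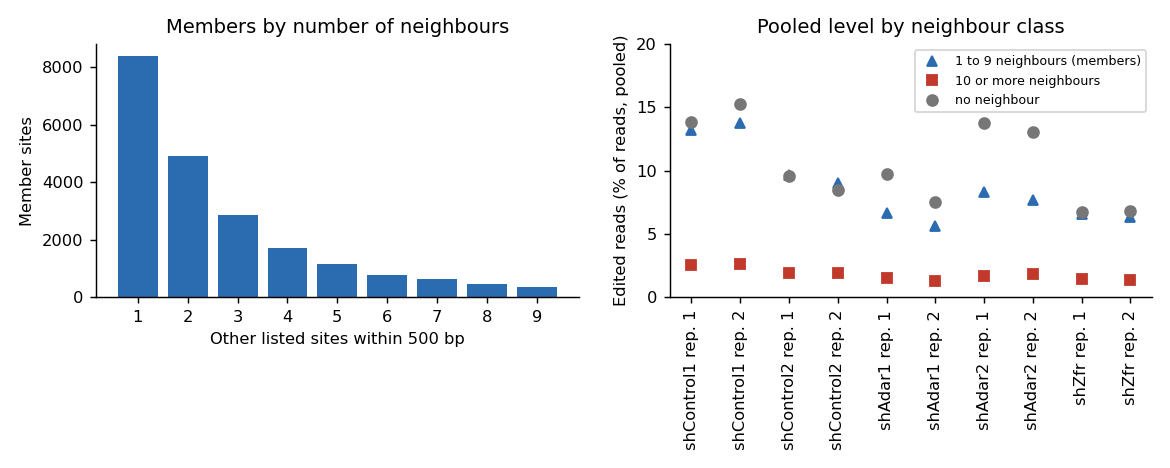
Left, number of member sites (y axis) by the number of other listed sites within 500 bp (x axis). Right, edited reads as a percent of all reads pooled over the sites of each neighbour class (y axis) in each of the 10 samples (x axis, rep. is replicate). Members with 1 neighbour are the largest bin at 8393 sites, and in every sample the members lie well above the sites with 10 or more neighbours.

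Coverage set what could be tested. A member had a median of 46 reads over the 10 samples together. Reads over members were fewest in the second shAdar2 sample (34488) and most in the second shZfr sample (243690). Only 112 members had at least 20 reads in all 10 samples. Within each comparison, a site was tested if each of its 4 samples had at least 20 reads and the 4 together held at least 5 edited and 5 unedited reads. This left 411 members for shAdar1, 22 for shAdar2, 718 for shZfr and 473 for the controls against each other. Of the 411 members tested for shAdar1, 58 reached that minimum with 5 or more edited reads in 1 group and none in the other. The same held for 1 of the 22 for shAdar2, 20 of the 718 for shZfr and 12 of the 473 for the controls. Members with a few edited reads in the other group are not counted in these numbers. The sites not tested give no value here, in either direction.

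The targeted genes were lower in their own groups. Adar, in CPM (read counts scaled to a common library size), stood at 172 ± 27.6 in shControl1 and 53.3 ± 2.43 in shAdar1 (mean ± SD, n = 2), a log2 fold change of -1.69 ± 0.13 (SE; edgeR adjusted p = 0.000341). Adarb1 stood at 120 ± 2.77 CPM in shControl1 and 50.2 ± 2.54 in shAdar2 (-1.26 ± 0.12, edgeR adjusted p = 7.12e-05). Zfr stood at 459 ± 52.6 CPM in shControl2 and 173 ± 0.117 in shZfr (-1.41 ± 0.11, edgeR adjusted p = 6.36e-05). Adarb1 also fell in shZfr, from 95.7 ± 5.25 to 47.3 ± 2.62 CPM (-1.02 ± 0.12, edgeR adjusted p = 0.000381), while Adar there was at 128 ± 14.6 and 136 ± 4.88 CPM (adjusted p = 0.656, edgeR). Zfr also fell in shAdar2, from 279 ± 15.7 CPM in shControl1 to 188 ± 12.6 (-0.57 ± 0.11, edgeR adjusted p = 0.00292). The part of these cross-effects in sites that were low in both shAdar2 and shZfr was not tested. All 3 targeted genes differed between the controls. Adar and Adarb1 were lower in shControl2 than in shControl1 (-0.42 ± 0.13 and -0.33 ± 0.12, edgeR adjusted p = 0.0246 and 0.046). Zfr was higher in shControl2, at 459 CPM against 279 (0.72 ± 0.11, edgeR adjusted p = 0.000886), so the 173 CPM of shZfr lay less far below shControl1 than below shControl2. Among 29 tested genes of a list of editing enzymes and reported editing regulators, 5 rose and 2 fell in shAdar1, 5 rose and 11 fell in shAdar2, and 8 rose and 5 fell in shZfr. In shAdar2 these included Strbp, a double-stranded RNA-binding protein gene (809 ± 48.5 to 267 ± 34.9 CPM), and in shZfr Ilf2, which encodes a partner of such proteins, was higher (58.9 ± 2.29 to 106 ± 2.01 CPM). Over all 14785 genes, 9.33% rose and 6.9% fell in shAdar1, 23.2% each way in shAdar2, and 16.7% and 14.1% in shZfr. Between the controls 7 of the 29 were higher and 7 lower in shControl2, against 19.9% and 23.2% of all genes.

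The cultures also differed in cell type markers. Neuronal markers summed to 2748 to 7814 CPM, with both shAdar2 samples lowest. Oligodendrocyte lineage markers summed to 76.4 and 120 CPM in shControl1, 439 and 440 in shControl2, 142 and 408 in shAdar1, 89.1 and 319 in shAdar2, and 260 and 300 in shZfr. Astrocyte markers summed to 387 and 619 CPM in shControl1, 1060 and 1302 in shControl2, and 275.5 to 1055 in the other 6 samples. Markers of proliferating progenitors summed to 181 and 146 CPM in shControl1, 451 and 486 in shControl2, 200 and 482 in shAdar1, 65.8 and 137 in shAdar2, and 723 and 669 in shZfr. The shZfr samples were thus highest for this list and the shAdar2 samples lowest, and the 2 shAdar1 samples differed widely. The microglial list stayed at or under 3.47 CPM, with Tmem119 at 0 in 9 of the 10 samples, and the endothelial and mural list at or under 21.05 CPM. In such bulk samples, fewer cells of a type and less RNA per cell cannot be told apart. The part of these marker differences in the editing results was not tested. The gene counts of the 2 shZfr samples differed by little more than sampling (median variance ratio 0.58, where sampling alone gives 0.455 and the replicate pairs of the controls and shAdar1 gave 2.59 to 4.10). They were kept as 2 samples. Summed to 1, an alternative chosen after seeing the data, 88 of 891 tested members fell in shZfr, beside 92 of 718 as 2 samples. That fit takes its spread from the 2 shControl2 samples alone and assumes that shZfr varies like them, so it does not measure the spread between shZfr cultures.

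Editing of clustered sites differed between the 5 groups. Over the 27 members with at least 20 reads in all 10 samples and at least 5 edited and 5 unedited reads, the mean level was 12.2% and 12.9% in shControl1, 10.0% and 9.37% in shControl2, 7.95% and 5.56% in shAdar1, 8.38% and 6.29% in shAdar2, and 4.18% and 4.82% in shZfr. The groups differed by an exact permutation test over all ways to split the samples into pairs (p = 0.0106). Leaving out shAdar2, whose second replicate was shallow, widened the set to 412 members over 8 samples. This alternative was chosen after seeing the data. Their mean level was 18.3% and 18.0% in shControl1, 11.9% and 10.9% in shControl2, 8.94% and 7.70% in shAdar1, and 7.19% and 6.88% in shZfr, with no overlap between groups (exact permutation p = 0.00952, the smallest that 105 splits can give). The plot of mean member level shows the same order of groups in both sets, with both controls apart from each other.

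**Figure D2:**
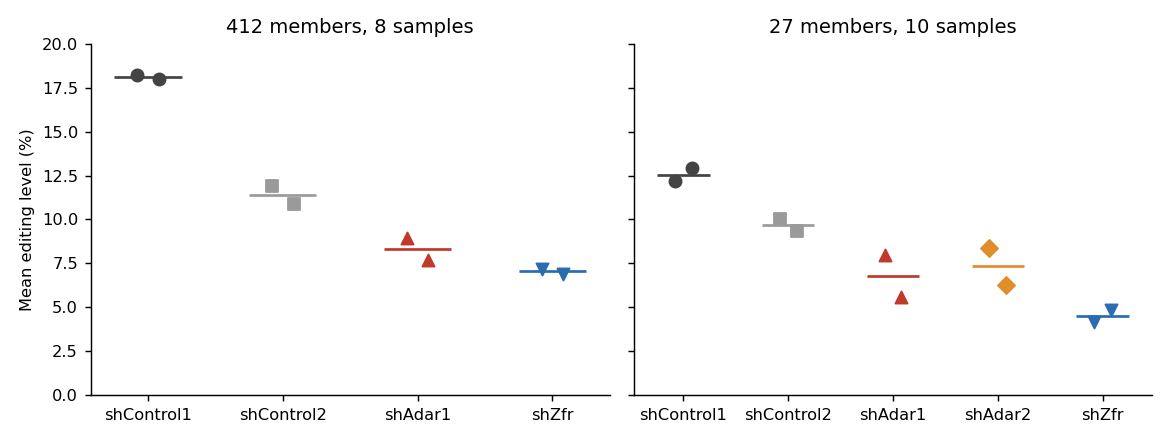
Mean editing level in percent (y axis) of member sites in each sample, by group (x axis). Left, 412 members covered in 8 samples without shAdar2; right, 27 members covered in all 10. Points are samples and horizontal lines are group means (n = 2). On the left no 2 groups overlap, and the shControl1 samples (18.3% and 18.0%) are highest.

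Whether members moved differently from other sites was asked with the difference in mean level on a logit scale. With all 10 samples, the gap between the 27 members and 106 dense sites did not differ between the groups beyond the spread (exact permutation p = 0.213), nor did the gap to 11 isolated sites (exact permutation p = 0.456). These calls depended on which sites entered: at 10 reads per sample in place of 20, with 148 members, both gaps differed (exact permutation p = 0.0212 and 0.0487), as they did at 50 reads with 8 members (exact permutation p = 0.00635 and 0.0106). With neighbours counted within 250 bp the gap to dense sites differed (exact permutation p = 0.0275) and that to isolated sites did not pass (exact permutation p = 0.138). In the 8 samples without shAdar2, the gap between 412 members and 422 dense sites did differ (exact permutation p = 0.00952). It was 0.37 and 0.38 logit units in shControl1, 0.25 and 0.18 in shControl2, 0.28 and 0.25 in shAdar1, and 0.09 in both shZfr samples. Members thus stood above dense sites in all 8 samples, and least so in shZfr, where they were at 7.19% and 6.88% and dense sites at 6.61% and 6.35%. The gap to 118 isolated sites also differed (exact permutation p = 0.0190), being 0.55 and 0.60 in shAdar1 and 0.18 to 0.37 in the other samples. In shAdar1, isolated sites were at 5.35% and 4.40% against 8.94% and 7.70% for members. The sign of this gap depended on the sites. Over the 11 isolated sites and 27 members covered in all 10 samples, isolated sites were higher in every sample. In shAdar1 they were at 14.0% and 11.4% there, against 7.95% and 5.56% for members.

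Many clustered sites were edited less in shAdar1 than in shControl1. Of the 411 members tested, 141 fell in shAdar1 against shControl1 (34.3%, beside 33.6% of all 890 tested sites) and 2 rose (0.337% of all sites), by edgeR's quasi-likelihood test on edited and unedited reads at an adjusted p of 0.05. The members that fell lay in 104 of the 214 local clusters with a tested member. Of the 411, 58 had edited reads in 1 group only, so the way they entered gives their direction. They stay in the counts and means here, and their number among the 141 is not given. The mean level of the 411 was 21.4% and 21.2% in shControl1 and 10.5% and 8.94% in shAdar1, a difference of -11.6 percentage points (exact permutation p = 0.333, the smallest that 2 against 2 samples allow). The level was lower in shAdar1 at 365 of the 411 (88.8%, beside 87.5% of all tested sites), and the median difference was -8.23 points, beside -7.00 over all tested sites. Members with 1 other site within 500 bp fell in 38.5% of 117 cases, those with 2 in 27.1% of 85, and those with 7 to 9 in 36.6% of 71, so the share showed no steady course with the number of neighbours. The number that fell was 13 without shAdar1 replicate 2 and 80 to 90 without any 1 of the other 3 samples, 61 by DESeq2 and 71 of 449 against shControl2. Shares over all tested sites are not given here for these counts. In shAdar1, 3 of 7 astrocyte markers rose and none of the 7 oligodendrocyte lineage or the 6 proliferating progenitor markers passed the test. The part of these cells was not tested.

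Decreases were ranked in percentage points, so the largest could only be at sites with high levels in shControl1. The site at chromosome 17 position 24315298, with 5 others within 500 bp, was edited at 70.0% and 82.4% in shControl1 and at 0% and 4.17% in shAdar1 (log2 odds ratio -6.86 ± 0.90 SE, edgeR adjusted p = 2.82e-05). Both shAdar1 samples lay far below all 6 samples of the controls and shZfr, which ranged from 39.6% to 82.4%. This site was also lower in shControl2, at 50.0% and 39.6%, than in shControl1 (log2 odds ratio -2.0 ± 0.53, edgeR adjusted p = 0.015).

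The site at chromosome 14 position 22615986, whose single neighbour is the adjacent base, was at 59.5% and 66.7% in shControl1 and 6.35% and 3.12% in shAdar1 (log2 odds ratio -5.14 ± 0.59, edgeR adjusted p = 9.3e-06). In shAdar2 replicate 1 it stood at 82.1% of 95 reads, and shAdar2 as pooled reads gave 82.7% (95% Wilson interval 74.3% to 88.8%) against 63.0% (52.1% to 72.7%) in shControl1, which was not tested because shAdar2 replicate 2 had 9 reads. In shZfr it was at 62.5% and 54.5%, beside 57.1% and 60% in shControl2 (edgeR adjusted p = 0.991). Wilson intervals cover counting error only, and reads without molecular identifiers are not independent molecules.

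Among the 10 largest decreases in shAdar1, that at chromosome 2 position 4016835 had the smallest standard error. This site, with 5 others within 500 bp, was at 83.0% and 84.6% in shControl1 and 30.2% and 27.3% in shAdar1 (log2 odds ratio -3.66 ± 0.50, edgeR adjusted p = 3.58e-05). The level was 82.4% and 74.7% in shControl2, 88.6% and 84.6% in shAdar2 and 79.6% and 80.2% in shZfr, so the shAdar1 samples alone were low. Position 4142901 on the same chromosome was at 57.1% and 51.9% in shControl1 and had 0 edited of 46 reads in shAdar1, which allows a level of up to 6.52%. It was also at 7.69% and 0% in shZfr, but shControl2 had 17 and 15 reads there, too few for the test.

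The other 6 of the 10 largest decreases in shAdar1 were on chromosomes 3, 8, 14, 17 and 19. At chromosome 14 position 125016066, levels of 87.0% and 83.6% in shControl1 stood against 15.2% and 13.5% in shAdar1, and at position 124885339, 93.1% and 95.8% against 32.3% and 20.5%. Chromosome 3 position 51030027 was at 89.2% and 75.7% against 23.5% and 16.0%, and chromosome 17 position 91258437 at 82.8% and 73.0% against 14.8% and 20.8%. Both of the latter passed in edgeR (adjusted p = 0.000121 and 0.000214), but not without shAdar1 replicate 2, nor did the sites named on chromosome 19 and at position 4142901 on chromosome 2. At chromosome 8 position 74900659 the fall from 58.3% and 66.7% to 2.70% and 8.70% passed against shControl1 (edgeR adjusted p = 0.000164) but not against shControl2, where this site was at 32.4% and 6.90%. Chromosome 19 position 7455552 had 0 edited of 48 reads in shAdar1, allowing up to 6.25%, and 42.9% and 70.6% in shControl1.

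Just 2 members rose in shAdar1, and both were edited at low levels. Chromosome 2 position 29767553 had 0 edited of 49 reads in shControl1, allowing up to 6.12%, and 14.3% and 11.8% in shAdar1 (edgeR adjusted p = 0.028). Chromosome 2 position 157383896 was at 1.52% in both shControl1 samples and at 17.9% and 4.35% in shAdar1 (edgeR adjusted p = 0.0331), with the shAdar1 samples far apart. DESeq2 called neither.

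Only 3 of 22 tested members fell in shAdar2 (13.6%, beside 16.2% of all 105 tested sites) and none rose by edgeR (0 also at an unadjusted p under 0.05 and by DESeq2; 0.952% of all sites rose). The mean level of the 22 was 14.8% and 15.8% in shControl1 and 10.2% and 7.72% in shAdar2 (exact permutation p = 0.333). In shAdar2, 4 of 8 neuronal markers and 1 of 6 proliferating progenitor markers fell and 1 neuronal marker rose. Also higher were 1 of 7 astrocyte, 1 of 7 oligodendrocyte lineage and 1 of 5 tested endothelial and mural markers. The part of these marker differences was not tested. At chromosome 3 position 80496208, the member with most reads, the level was 68.7% and 73.0% in shControl1, 51.7% and 40.7% in shControl2, 55.8% and 43.2% in shAdar1, 21.2% and 17.3% in shAdar2, and 20.7% and 21.0% in shZfr. It fell in shAdar2 (log2 odds ratio -3.28 ± 0.34, edgeR adjusted p = 1.02e-16), in shZfr (-1.69 ± 0.12, edgeR adjusted p = 1.09e-40) and, by less, in shAdar1 (-1.32 ± 0.34, edgeR adjusted p = 0.0073). The site was also lower in shControl2 than in shControl1 (-1.51 ± 0.26, edgeR adjusted p = 0.000179). The fall in shAdar1 was thus no larger than that between the controls, and the shAdar1 samples overlapped those of shControl2. The adjacent base, position 80496209, is also listed and was covered by 5950 reads, yet its level did not pass 2.21% in any sample. Positions 1 bp apart thus stood at 68.7% and 73.0% against 0.990% and 2.21% in the same shControl1 libraries.

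Chromosome 11 position 46086145 separated the groups more sharply. It was at 32.6% and 39.2% in shControl1, 27.4% and 24.1% in shControl2, 33.7% and 32.2% in shAdar1, 4.02% and 7.27% in shAdar2, and 2.86% and 3.52% in shZfr. The shAdar1 samples lay within the range of the controls (log2 odds ratio -0.19 ± 0.35, edgeR adjusted p = 0.706), and the shAdar2 and shZfr samples lay below all others (-3.48 ± 0.50 and -3.38 ± 0.33, edgeR adjusted p = 8.38e-10 and 5.66e-21). The third site, chromosome 14 position 13244096, was lower than shControl1 in every other group: 36.4% and 41.8% there, 20.1% and 21.6% in shControl2, 9.64% and 9.26% in shAdar1, 23.0% and 9.09% in shAdar2, and 9.77% and 9.04% in shZfr. Its fall in shAdar2 (edgeR adjusted p = 0.0224) was gone against shControl2.

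With a minimum of 10 reads per sample in place of 20, 32 of 130 members fell in shAdar2. The share over all tested sites at that minimum is not given here, so the count does not set members apart from other sites. The sites named next from that larger set were chosen after their values were seen. Chromosome 10 position 48992582 was at 79.3% and 78.9% in shControl1 and at 6.31% and 8.33% in shAdar2 (log2 odds ratio -5.71 ± 0.59, edgeR adjusted p = 3.83e-19). It stood at 53.5% and 47.2% in shAdar1 and 13.3% and 11.8% in shZfr. Chromosome 11 position 36378011 was at 47.2% and 36.0% in shControl1 and 3.03% and 0% in shAdar2 (edgeR adjusted p = 0.000111), and stood at 31.4% and 48.8% in shAdar1 (edgeR adjusted p = 0.983).

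Editing was lower in shZfr than in shControl2 at 92 of 718 tested members (12.8%, beside 12.3% of all 1312 tested sites). None rose by edgeR (0.0762% of all sites did; 3 members at an unadjusted p under 0.05, 0 by DESeq2). The decreases lay in 73 of 370 local clusters. The mean level was 18.1% and 17.3% in shControl2 and 11.8% and 11.6% in shZfr, a difference of -5.96 points (exact permutation p = 0.333). The median difference of the members was -3.98 points, beside -3.55 over all tested sites. By number of others within 500 bp, the share that fell was 10.7% of 177 with 1, 16.7% of 144 with 2, 15.1% of 146 with 3 to 4, 12.5% of 128 with 5 to 6 and 8.94% of 123 with 7 to 9. The number that fell was 8 without shControl2 replicate 1 and 54 to 60 without any 1 of the other 3 samples, 5 by DESeq2, and 233 of 466 against shControl1. Shares over all tested sites are not given here for these counts. In shZfr 4 of 7 astrocyte markers fell and 1 rose, and 2 of 7 oligodendrocyte lineage markers fell. None of the 6 proliferating progenitor markers passed. The part of these cells was not tested.

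**Figure D3:**
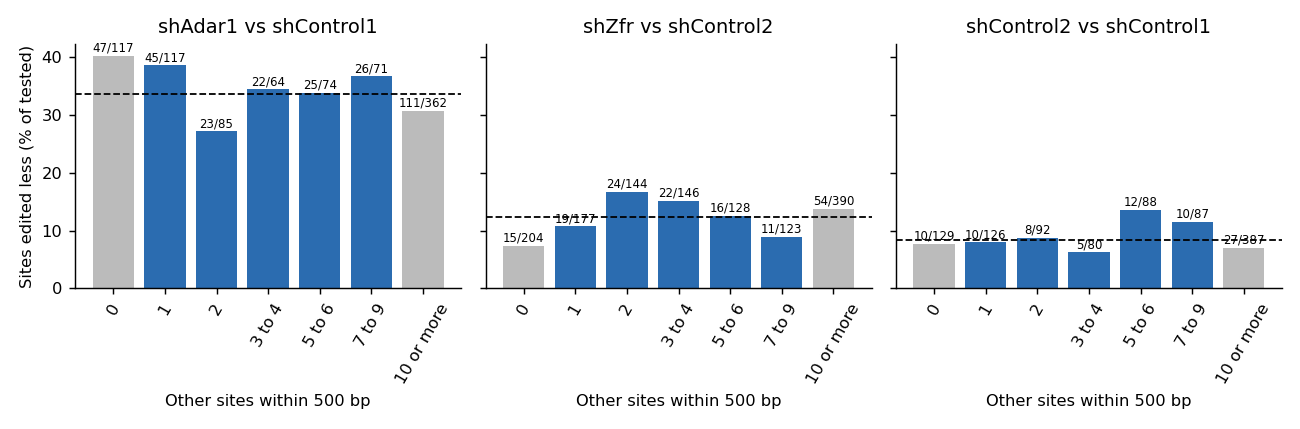
Share of tested sites that fell (y axis, percent, edgeR adjusted p under 0.05) by the number of other listed sites within 500 bp (x axis) in 3 comparisons. Blue bars are members and grey bars are isolated and dense sites, numbers above bars are fallen over tested sites, and the dashed line is the share over all tested sites. The shares lie around that line, 33.6%, 12.3% and 8.29%, with no steady course along the axis.

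The sites with the largest decreases in shZfr, also ranked in percentage points, were at 35.0% to 84.6% in every shControl2 sample. Such a ranking requires high baseline levels. Chromosome 10 position 48964136, with 9 others within 500 bp, was at 79.7% and 82.1% in shControl2 and 19.1% and 39.0% in shZfr (log2 odds ratio -3.28 ± 0.45, edgeR adjusted p = 5.26e-11). It was at 77.6% and 79.1% in shAdar1 and at 30.5% of 82 reads in shAdar2 replicate 1. Position 48992582, also on chromosome 10, went from 60.2% and 56.2% to 13.3% and 11.8% (log2 odds ratio -3.30 ± 0.46, edgeR adjusted p = 9.91e-11).

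Chromosome 2 position 4040112 contrasts with position 4016835 on the same chromosome, described above. At 4040112 the level was 84.6% and 82.6% in shControl2, 50.0% and 40.0% in shZfr (log2 odds ratio -2.61 ± 0.66, edgeR adjusted p = 0.00169) and 28.0% of 25 reads in shAdar2 replicate 1. In shAdar1 it was at 77.1% and 72.7%, beside 84.0% and 66.7% in shControl1 (edgeR adjusted p = 0.962). The site 4016835 showed the reverse pattern: low in shAdar1 and at 80.2% or 79.6% in shZfr (edgeR adjusted p = 0.855). The difference between the 2 sites was not tested.

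Further decreases in shZfr were at chromosome 12 position 79618122 (57.1% and 38.5% to 7.14% and 4.00%), chromosome 8 position 33889239 (42.5% and 50.0% to 10.8% and 6.38%) and position 33942427 (53.8% and 35.0% to 14.0% and 5.26%). At chromosome 6 position 115579614 levels were 59.3% and 40.0% in shControl2 and 13.8% and 16.7% in shZfr, with 44.0% and 58.3% in shAdar1. Chromosome 5 position 23667567 was at 71.4% and 51.1% against 20% and 23.4%, and chromosome 7 position 68035816 at 67.6% and 76.0% against 21.4% and 44.0%. In each of these 6 sites both shZfr samples lay below both shControl2 samples, and the edgeR adjusted p-values ran from 2.45e-08 to 0.00537. DESeq2 called position 33889239 but not the other 5, nor positions 25745158 on chromosome 12 and 4040112 on chromosome 2.

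**Figure D4:**
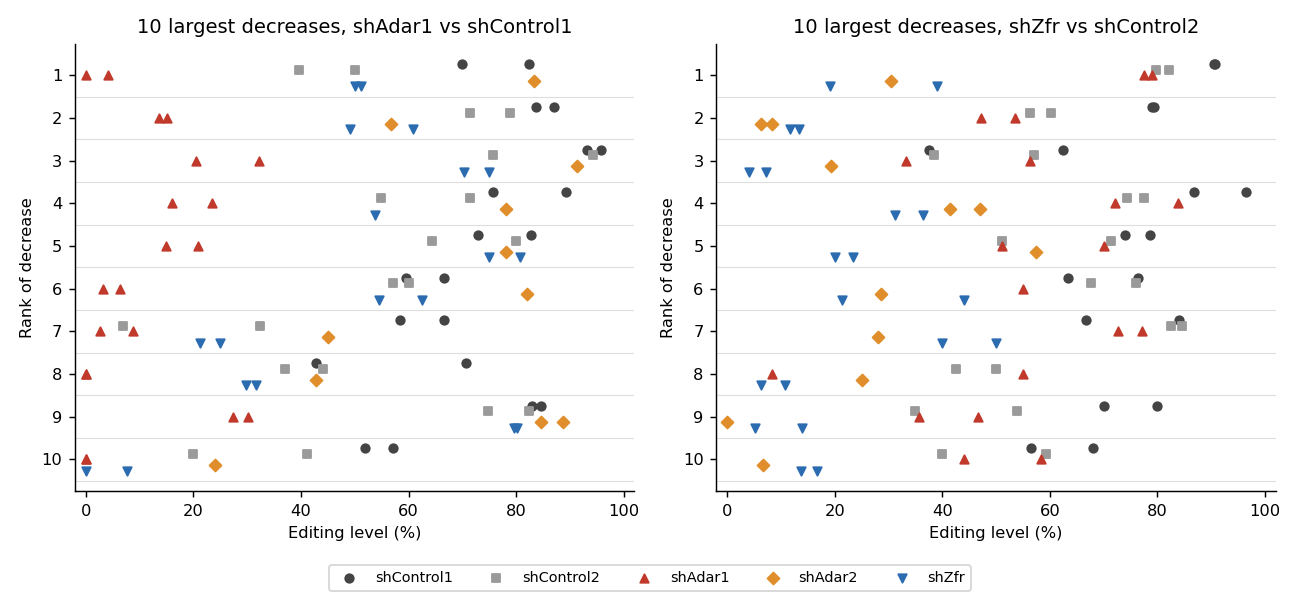
Editing level in percent (x axis) of the 10 members with the largest decrease in shAdar1 (left) and in shZfr (right), in order of decrease (y axis). Each point is a sample with at least 10 reads, coloured by group. On the left the red shAdar1 points stand alone at the low end of most sites; on the right the blue shZfr and orange shAdar2 points lie below the red shAdar1 points at most sites.

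The comparisons of shAdar1 and of shZfr share no control samples. Of 273 members tested in both, 108 fell in shAdar1 and 45 in shZfr, and 12 fell in both, which is 11.1% of the first list and 26.7% of the second. Of all 273, 39.6% fell in shAdar1 and 16.48% in shZfr. The same overlap over all sites tested in both comparisons is not given here, so it does not set members apart from other sites. Over the 115 members that fell in shAdar1 and were covered in 8 samples, the mean level was 5.86% and 5.33% in shAdar1 and 12.1% and 11.9% in shZfr, beside 16.47% and 14.7% in shControl2. Over the 45 that fell in shZfr it was 11.6% in both shZfr samples and 31.2% and 27.0% in shAdar1. These 45 were at 43.1% and 41.2% in shControl1 and 35.1% and 32.8% in shControl2. In the first shAdar2 sample, which is deep enough to set beside these, 39 of the 45 stood at a mean of 14.2%. In the same sample 103 of the 115 stood at 18.4%. In shControl1 those 39 were at 41.8% and 40.8%, and those 103 at 26.2% and 28.6%. The 103 were chosen in a comparison with these shControl1 samples. The values of a list in the comparison that chose it are a description.

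Some local clusters held several sites that fell. On chromosome 11, 4 sites between positions 36577443 and 36577455, a span of 13 bp, all fell in shAdar1. The most edited, position 36577453, went from 89.3% and 93.6% in shControl1 to 40.0% and 58.1% in shAdar1 (log2 odds ratio -3.57 ± 0.66, edgeR adjusted p = 0.000669). Its neighbour 2 bp away, position 36577455, went from 23.1% and 39.0% to 0% and 3.12% (edgeR adjusted p = 0.00149). Averaged over the 4, the level was 42.7% and 50.2% in shControl1, 14.1% and 17.2% in shAdar1, 43.4% and 48.0% in shControl2, 39.2% and 35.7% in shAdar2 and 44.0% and 37.6% in shZfr, so only the shAdar1 samples were low.

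Chromosome 12 positions 25745135 to 25745161 held 5 tested sites. Position 25745135 was at 18.8% and 29.1% in shControl1 and had 0 edited of 140 reads in shAdar1, which allows up to 2.14% (edgeR adjusted p = 0.000214), and it was at 19.0% of 58 and 7.14% of 14 reads in shAdar2. Position 25745161, 26 bp further on, was at 48.4% and 39.4% in shControl1 and 27.7% and 33.0% in shAdar1 (edgeR adjusted p = 0.148), and at 2.90% of 69 and 0% of 19 reads in shAdar2. Position 25745148 between them was at 37.7% and 61.8% in shControl1, 5.97% and 5.88% in shAdar2, and 30.6% and 25.6% in shAdar1, where it also fell (log2 odds ratio -1.37 ± 0.49, edgeR adjusted p = 0.0417). In shControl2, position 25745148 stood at 34.7% and 23.2%, and position 25745161 at 28.8% and 23.7%, so shControl2 was also below shControl1 at both as group means. As group means, all 3 sites were lower in shAdar1 and in shAdar2 than in shControl1. Whether the sites differed in response was not tested. In shZfr, 4 of the 5 fell against shControl2, among them 25745158 from 74.4% and 77.5% to 36.5% and 31.2% (log2 odds ratio -2.62 ± 0.39, edgeR adjusted p = 2.94e-09) and 25745135 from 24.0% and 17.2% to 3.85% and 5.26% (edgeR adjusted p = 0.01).

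The cluster with most decreases in shAdar1 was on chromosome 9, where 5 of 6 tested sites between positions 21487225 and 21487527 fell. Position 21487527 was at 30.8% and 28.9% in shControl1, 4.08% and 0% in shAdar1 and 20% and 3.23% in shControl2. Averaged over the 6, shControl1 was at 23.1% and 27.4%, shAdar1 at 8.15% and 6.68% and shControl2 at 12.0% and 7.72%. The shControl2 samples thus also lay below shControl1 here. On chromosome 12, 3 of 5 tested sites between positions 3404248 and 3404648 fell in shAdar1. There position 3404616 had 0 edited of 238 reads in shAdar1, allowing up to 1.26%, beside 9.70% and 7.63% in shControl1. It was at 3.27% and 1.96% in shControl2. In the same cluster position 3404647 fell in shAdar1 (22.6% and 31.1% to 10.8% and 6.03%, edgeR adjusted p = 0.00518) and in shZfr (16.2% and 10.3% in shControl2 to 2.70% and 0%, edgeR adjusted p = 0.000289).

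Among clusters that fell in shZfr, 3 of 6 tested sites on chromosome 11 between positions 36378011 and 36378164 did so. Position 36378024 was at 17.1% and 22.6% in shControl2 and 3.26% and 3.57% in shZfr (log2 odds ratio -2.78 ± 0.61, edgeR adjusted p = 0.000192), while shAdar1 was at 23.1% and 52.5%. On chromosome 3, 2 of 5 tested sites between positions 32460393 and 32460413 fell, 32460393 from 20.6% and 14.2% to 5.77% and 5.00% and 32460407 from 8.87% and 9.09% to 0.980% and 3.36%. The 3 sites between or beside them were at or under 3.73% in shControl2.

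**Figure D5:**
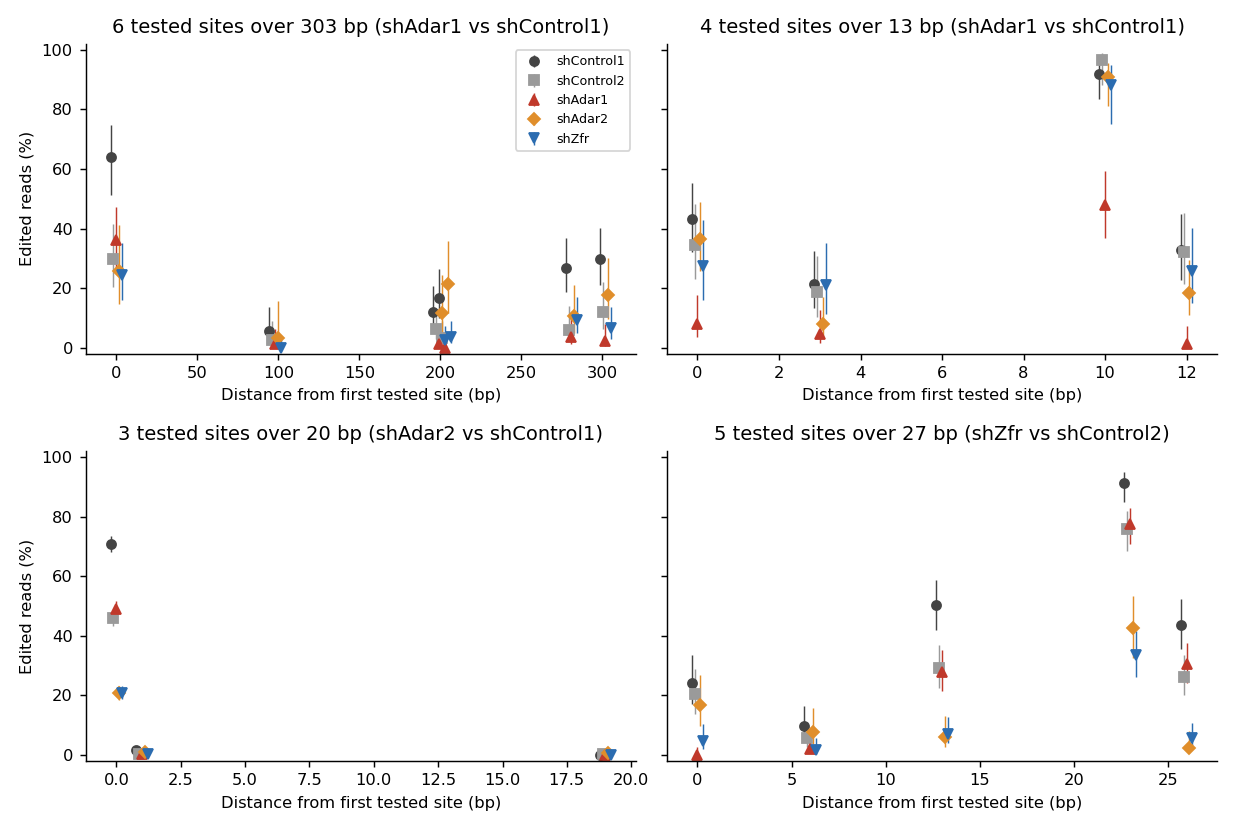
Edited reads in percent, pooled over the 2 replicates of each group (y axis, bars are 95% Wilson intervals of counting error), at the tested sites of 4 local clusters against distance from the first tested site in bp (x axis). In the 13 bp cluster only shAdar1 lies low at every site, and in the 27 bp cluster the first site is lowest in shAdar1 while the site 26 bp on is lowest in shAdar2 and shZfr.

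Neighbouring members were compared over all local clusters as successive tested pairs at most 500 bp apart. For shAdar1 there were 197 pairs, of which 29 had both sites fall, 70 had 1 and 98 had none by edgeR's threshold. In value, both sites were lower in 165 of the 197 pairs. A pair counts only if 2 sites are lower, so this is not comparable with the 88.8% of single tested members. The levels of the 2 sites in shControl1 differed by a median of 9.58 points and were weakly related across pairs (Spearman rho 0.20 for levels and 0.27 for changes, 197 pairs). For shZfr, 13 of 345 pairs had both sites fall, 65 had 1 and 267 had none, and both sites were lower in value in 215, with rho 0.24 for levels and 0.28 for changes. Whether the sites of a pair responded differently was not tested. These are descriptions over pairs that share libraries and, at short distances, reads.

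The controls differed from each other at clustered sites. Of 473 tested members, 45 were lower in shControl2 than in shControl1 (9.51%, beside 8.29% of all 989 tested sites) and none was higher by edgeR (0 also at an unadjusted p under 0.05 and by DESeq2; 0.0% of all sites). The mean level was 21.1% and 20.7% in shControl1 and 13.8% and 12.8% in shControl2 (exact permutation p = 0.333). This difference of -7.64 points is of the same order as that of shZfr from shControl2 (-5.96 over 718 members) and smaller than that of shAdar1 from shControl1 (-11.6 over 411). Chromosome 14 position 13307570 was at 50.0% and 60.9% in shControl1 and 19.1% and 15.5% in shControl2 (log2 odds ratio -2.55 ± 0.57, edgeR adjusted p = 0.00542). It was at 21.9% and 23.3% in shAdar1 and 10.0% and 16.0% in shZfr, all below both shControl1 samples. In shAdar2 it had 5 edited of 15 reads, 33.3% (95% Wilson interval 15.2% to 58.3%), which overlaps the interval of shControl1 (41.3% to 68.1%). Chromosome 11 position 36394278 (48.4% and 52.7% in shControl1, 8.51% to 22.9% in the other 8 samples) and chromosome 6 position 85908394 (43.4% and 52.0% in shControl1, 20% and 16.2% in shControl2) were also lower in shControl2. On chromosome X, 2 of 7 tested sites between positions 100771823 and 100771892 were lower in shControl2, the first of them at 33.3% and 28.0% in shControl1 and 6.06% and 3.70% in shControl2 (edgeR adjusted p = 0.0296). The last site of that cluster, position 100771892, was at 55.0% and 40.9% in shControl1 and 28.6% and 16.7% in shControl2 (edgeR adjusted p = 0.114). It had 0 edited of 35 reads in shAdar1, which allows up to 8.57%, and 48.0% of 25 reads in shAdar2 replicate 1, with too few shAdar1 reads per sample for the test. Chromosome 16 position 87940788 was at 59.4% and 37.0% in shControl1, 16.7% and 18.9% in shControl2 and 9.68% and 7.84% in shAdar1. By DESeq2 and by each fit without 1 sample, between 0 and 3 of these members passed. Of the 7 oligodendrocyte lineage markers 5 were higher in shControl2 and none lower, and of the 7 astrocyte markers 6 were higher. Of the 6 proliferating progenitor markers 4 were higher and none lower, and of the 8 neuronal markers 4 were higher and 1 lower. The part of these cells in the editing difference was not tested.

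Among the members covered in all 10 samples, the most edited besides chromosome 3 position 80496208 were 2 sites 9 bp apart on chromosome 2. Position 157383885 was at 56.9% and 55.7% in shControl1, 59.6% and 61.3% in shControl2, 46.4% and 23.0% in shAdar1, 61.2% and 46.2% in shAdar2, and 29.3% and 35.6% in shZfr. Position 157383876 was at 45.2% and 48.4%, 49.0% and 36.4%, 30.8% and 18.3%, 47.6% and 31.8%, and 22.2% and 27.1% in the same order. The first fell in shZfr (edgeR adjusted p = 0.0113) and the second in shAdar1 (edgeR adjusted p = 0.0323). The other tests of each missed the threshold (edgeR adjusted p = 0.0585 for the first in shAdar1, 0.0811 for the second in shZfr, 0.903 for both in shAdar2), which does not show that the 2 sites differ in response. Position 157383896, 11 bp from the first, is 1 of the 2 sites that rose in shAdar1.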

How the data were processed

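RNA-seq of 12 libraries (10 samples, 5 groups) was used. Per the file headers, each deposited site file gives the reference and edited read counts at each site and the editing level as a fraction; the submitters' processing notes name the mm9 build and, with no order given, RSEM 1.2.30, STAR 2.5.4b, DESeq2 1.20.0, SAMtools 1.4 and Trim Galore 0.4.5. The deposited gene files hold RSEM expected counts by the authors, rounded here to whole numbers. Site calling filters and strandedness are not given in the sources used here. Duplicate removal is also not given, so reads may not be independent.

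Levels were recomputed as edited over all reads from the counts, and a site absent from a file had 0 reads there. Sites were tested in edgeR 4.0.16 (R 4.3.3) by a quasi-likelihood test of the edited and unedited reads in 4 samples with a term per library. A site needed 20 or more reads per sample and, over the 4 together, 5 or more of each kind. P-values had Benjamini-Hochberg adjustment over all tested sites. Odds ratios are edited to unedited reads. Genes were tested in edgeR over all 10 samples with TMM scaling. Mean levels were compared with two-sided exact permutation tests (scipy). Total expected counts per sample were 15818942 to 82653835. Scripts were tested on simulated data.

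Sites were named by rule: per comparison the 10 largest decreases and 5 largest increases past the threshold with at most 2 per local cluster, the 3 local clusters with most decreases, and the 3 members with most reads and 3 with the highest level. Members and lists were chosen with earlier results of these data known. Alternatives were read minimums, DESeq2 1.42.0, Fisher's exact test, the other control hairpin, other windows, left-out samples, technical libraries alone and a replicate block. Sequences around sites were not used here.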

Additional observations from a re-analysis of the deposited data

How the results depend on the processing

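Mean member levels kept their direction under every alternative run on them. These were read minimums, pooled shares, medians, other windows, neighbours edited in 2 libraries, the replicate block and left-out samples. The other control hairpin was not among them. Members called lower in shAdar1 numbered 410 at a minimum of 10 reads, 26 at 50 reads, 65 with no minimum of edited or unedited reads, 61 by DESeq2, 71 against the other control hairpin, and 13 to 90 leaving out 1 sample. Members called higher there numbered 0 at 50 reads, with no minimum and by DESeq2, 1 with the replicate block, and 0 without each sample. For shAdar2, decreases numbered 32 at 10 reads, 10 without shAdar2 replicate 2 (3 to 10 over the samples left out), 8 with a window of 250 bp and 5 when neighbours needed an edited read in 2 libraries. For shZfr they numbered 21 at 50 reads, 25 with no minimum, 5 by DESeq2, 233 against the other control hairpin, 8 to 60 leaving out 1 sample, and 88 of 891 when the shZfr samples were summed to 1; increases numbered 1 without shZfr replicate 2 (0 to 1). Between the controls, decreases numbered 17 at 50 reads, 1 with no minimum, 0 by DESeq2, 68 by Fisher's exact test, 2 with the replicate block and 0 to 3 leaving out 1 sample. The cause of these shifts was not tested, except that higher read minimums leave fewer sites. Shares over all tested sites are not given here for these alternatives, so the counts do not set members apart from other sites.

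The group difference in members minus dense sites reached exact permutation p = 0.0212 at 10 reads, 0.00635 at 50 reads, 0.0275 with a window of 250 bp, 0.00635 with neighbours edited in 2 libraries, 0.00635 without shAdar2 replicate 2 (0.00635 to 0.437 leaving out 1 sample) and 0.00952 without shAdar2. Members minus isolated sites reached 0.0487 at 10 reads, 0.0106 at 50 reads, 0.00635 with pooled shares, 0.00423 without shAdar2 replicate 2 (0.00423 to 0.793 leaving out 1 sample) and 0.0190 without shAdar2. The shAdar2 change at chromosome 14 position 13244096 was reversed against the other control, at a log2 odds ratio of 0.033. Same-numbered replicates share only a number: their deviations correlated at -0.08, 0.36 (22 sites), -0.002 and -0.03. With the replicate block, 104 members fell in shAdar1, 2 in shAdar2, 70 in shZfr and 2 between the controls. The shallow shAdar2 replicate 2 and 2 samples a group limit all calls.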
